A study of Mus musculus with 12 samples.

Results

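Neutrophils fill their granules in a fixed order as they mature in the marrow, and 38 genes of that programme were followed here in lineage-depleted bone marrow of E4bp4 knockout and wild type mice. The 38 genes were named by symbol from their known roles, with earlier results of these data known. A gene was measured where a row of the array table was annotated to it and to no other gene. For 36 of them such a row was found, 1 row each, among the 29541 transcript clusters (the probe sets of the array) that were tested and the 34760 in the table; Fpr1 and Fpr2 were not analysed here. By role, 6 of the 36 were primary granule and promyelocyte genes, 11 later granule genes, 10 genes of cytosolic, membrane-bound or secreted proteins, 7 surface receptor genes and 2 genes of the NADPH oxidase.

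The groups were 6 E4bp4-/- (knockout) and 6 E4bp4+/+ (wild type) mice, each on an array of its own. E4bp4, also called Nfil3, is a basic leucine zipper transcription factor. Hindleg marrow of both groups had been depleted by magnet with antibodies to Ter119, GR1, CD11b, B220, CD2 and NK1.1. CD11b and GR1 are the surface antigens of maturing neutrophils, so the depletion was aimed at the cells that carry most of the later granules. The strain, age and sex of the mice and the deleted part of the gene are not given in the sources used here. Nfil3 itself was at 6.34, 6.38 and 6.92 (lowest, median and highest log2 level) in the knockout and at 6.94, 7.11 and 7.66 in the wild type, with no overlap between genotypes. Whether its probes lie in the deleted part is not given either. The difference was -0.68 ± 0.13 log2 (SE) with a two-sided exact permutation p of 0.00216, the smallest that 6 arrays against 6 can give, and an adjusted p of 0.14 in limma over all transcript clusters.

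Promyelocytes, the early dividing precursors, make primary (azurophil) granules, which carry myeloperoxidase and the serine proteases elastase, proteinase 3 and cathepsin G. Myelocytes and later cells switch to specific and gelatinase granules, which hold lactoferrin, lipocalin 2, cathelicidin and matrix metalloproteinases. The first transcripts stop as the second set begins, so the proportions of both report on how mature a population of neutrophil precursors is. The transcription factors PU.1, C/EBP alpha, C/EBP epsilon and Gfi1 act along this course.

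Knockout array 1 was the highest of the 12 arrays for all 36 genes. Across all transcript clusters tested that array was the highest for 14.8% and the lowest for 18.7%. Its median deviation from the gene mean over 12 arrays was 1.30 log2 for the 36 genes and -0.02 log2 for all clusters. On the other 11 arrays the median deviation of the 36 genes lay between -0.55 in knockout array 4 and 0.36 in wild type array 1. Knockout array 1 exceeded every other array by more than 1 log2 for 30 transcript clusters, 0.102% of those tested, and 12 of the 30 were genes of this set. The 12 were S100a9, Ltf, Ngp, S100a8, Fcnb, Lcn2, Camp, Retnlg, Ly6g, Mmp8, Cybb and Lyz2. Knockout array 4 was the lowest array for 18 of the 36 genes and wild type array 5 for 8 (6.1% and 5.8% of all clusters). High and low arrays thus occurred in both genotypes, and the greatest departure was that of a single knockout array.

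**Figure D1:**
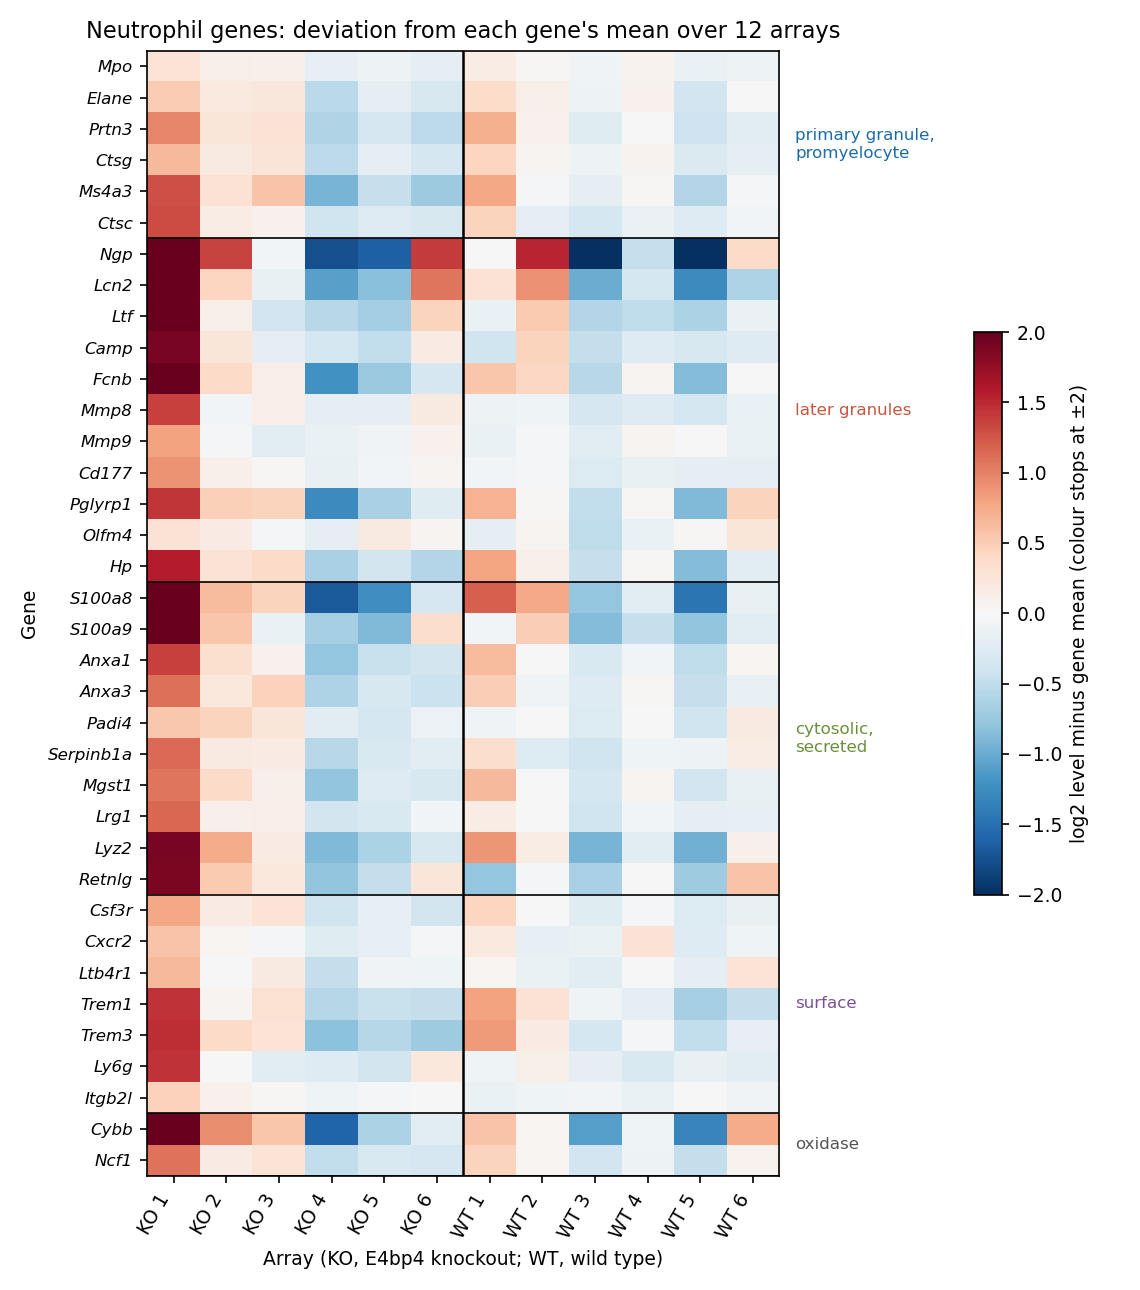
Log2 level of each of the 36 genes (rows, grouped by role) on each of the 12 arrays (columns; KO, knockout; WT, wild type), as the deviation from the gene's mean over the 12 arrays, with the colour scale ending at ±2. Knockout array 1 is the highest array in all 36 rows, and knockout array 4 the lowest in 18.

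That array also stood apart in genes outside the set, and the part of these in the neutrophil values was not tested. It alone carried Y-linked signal, with Eif2s3y at 7.37 against at most 4.13 elsewhere, and it alone had low Xist, at 6.08 against 12.10 to 12.65. Of 10 monocyte and macrophage markers all were highest there, with a mean of 9.06 against 7.45 to 8.14 on the other arrays. Of 5 erythroid markers 4 were lowest there, and their mean was 11.86 against 12.07 to 12.37. The exception was Slc4a1, lowest in knockout array 4. Of 5 basophil and mast cell markers all were highest there, as were 2 of 6 eosinophil, 3 of 4 stem and progenitor and 1 of 7 B lineage markers. Igha, an immunoglobulin gene in none of these lists, exceeded every other array there by 3.36 log2 (1.81 in another cluster). The widest such gap in the neutrophil set was 2.13, for S100a9. The low arrays were also low in some of these lists. Knockout array 4 was lowest for 5 of 6 eosinophil, 1 of 5 basophil and mast cell and 1 of 10 monocyte and macrophage markers. Wild type array 5 was lowest for 0, 4 and 2 of these. For erythroid, B lineage and stem and progenitor markers the counts were 1, 0 and 0 in knockout array 4. In wild type array 5 they were 0, 2 and 0. Array medians differed little, from 6.50 to 6.62. In bulk RNA, a change in the number of cells of a type and a change in RNA per cell cannot be told apart. The comparisons below were made with all arrays and without knockout array 1.

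No gene of the set passed an adjusted p of 0.05 in limma, on 12 arrays or without knockout array 1. The lowest adjusted p was 0.377 and 0.34, in both cases that of Cd177. Among all clusters 0.0% passed on 12 arrays and 0.0136% (4 clusters) without that array. At an unadjusted p under 0.05 in limma 0 of the 36 were found on 12 arrays, against 14.9% of all clusters (8.47% higher and 6.39% lower in the knockout). Without knockout array 1 there were 2, Mmp8 and Cd177, both higher in the knockout, against 13.6% of all clusters (8.42% higher and 5.14% lower). No gene had genotypes that did not overlap, with or without the array (1.27% and 1.98% of all clusters). On 12 arrays 35 of the 36 differences were above 0 (55.9% of all clusters), with a median of 0.15 log2 against 0.0152 for all clusters. Without knockout array 1, 14 were above 0 (56.6% of all clusters), the median was -0.0566 against 0.0165, and 21 genes had changed sign.

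**Figure D2:**
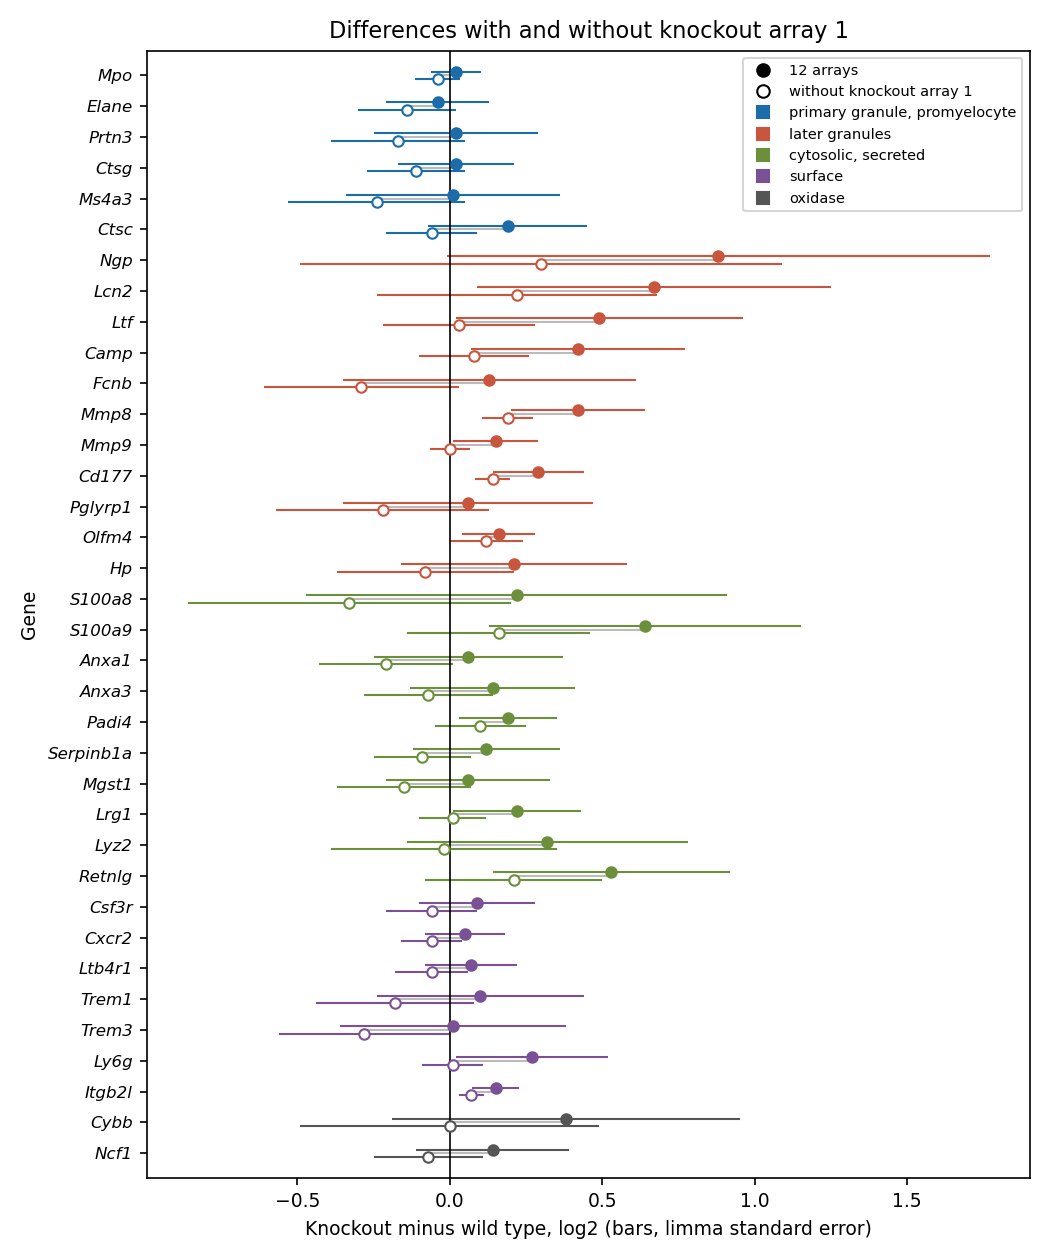
Knockout minus wild type difference in log2 for each of the 36 genes, with limma standard errors as bars; filled points use 12 arrays and open points leave out knockout array 1, and colour gives the role. On 12 arrays 35 points lie above 0, and without that array 14 do; Ngp has the highest difference, 0.88, and falls to 0.30.

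The spread within a genotype was wide for these genes. The pooled standard deviation within genotypes had a median of 0.512 log2 over the 36 genes and of 0.113 over all clusters. Of the 36, 25 were among the 5.0% of clusters with the widest spread, and 18 were when knockout array 1 was left out. A wide spread was not particular to this set. Its median was 0.737 log2 for eosinophil, 0.642 for basophil and mast cell and 0.473 for monocyte and macrophage markers. Erythroid, B lineage and stem and progenitor markers had medians of 0.164, 0.209 and 0.159. Levels of Ngp spanned 42.6-fold over the 12 arrays and 12.2-fold over 11, whereas Mpo spanned 1.37-fold. Mpo had a mean level of 13.42, however, and the highest value of any cluster on any array was 14.33. Whether the upper end of the signal scale narrowed its range was not tested. The precision of the differences followed from the spread within genotypes. Of the 36 genes 13 had a 95% interval narrower than ±0.5 log2, and 7 had one of ±1 log2 or wider.

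The primary granule genes had differences near 0, with intervals that were narrow for Mpo and Elane and wide for Ms4a3. Mpo and Elane lay near the top of the signal scale, at means of 13.42 and 12.90, and an effect of this on their intervals was not tested. Mpo, which encodes myeloperoxidase, was at 13.24, 13.42 and 13.69 (lowest, median, highest) in the knockout and 13.29, 13.40 and 13.57 in the wild type. The difference was 0.02 ± 0.083 log2 with a 95% interval from -0.16 to 0.20. Elane, neutrophil elastase, was at 12.36, 12.90 and 13.40 in the knockout and 12.51, 12.95 and 13.27 in the wild type, and it differed by -0.04 ± 0.17 with an interval from -0.41 to 0.34. The differences without knockout array 1 were -0.04 ± 0.074 for Mpo and -0.14 ± 0.16 for Elane. For both genes the wild type arrays lay inside the range of the knockout arrays. Prtn3, proteinase 3, ran from 11.40 to 12.97 in the knockout and from 11.59 to 12.71 in the wild type, and Ctsg, cathepsin G, from 12.10 to 13.28 and from 12.34 to 13.05. Both differed by 0.02 log2, and without knockout array 1 by -0.17 and -0.11. Ms4a3, a membrane protein of the granulocyte and monocyte progenitor stage, was at 9.17 to 11.38 and 9.51 to 10.87, with a difference of 0.01 ± 0.35. Ctsc, the cathepsin that activates these proteases, was at 8.21, 8.52 and 9.92 in the knockout and 8.26, 8.45 and 9.05 in the wild type. Its difference was 0.19 ± 0.26 on 12 arrays and -0.06 ± 0.15 without knockout array 1. Without that array all 6 differences were below 0, from -0.24 for Ms4a3 to -0.04 for Mpo. In all 6 genes wild type array 1 was the second highest array, and in 5 of them knockout array 4 was the lowest.

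The start regions of 3 primary granule genes are shown because they share a motif there. Their order of highest and second highest array does not set them apart, since all 6 primary granule genes had it. Ctsg and Ms4a3 were among these 6 and were not found with the motif. A gene without a sequence would count as lacking it. Each is the 250 bases before the annotated start in RefSeq (GRCm38.p6), and capitals mark a PU.1 motif, GAGGAAGT on either strand.
Mpo, chr11:87793534-87793783, plus strand: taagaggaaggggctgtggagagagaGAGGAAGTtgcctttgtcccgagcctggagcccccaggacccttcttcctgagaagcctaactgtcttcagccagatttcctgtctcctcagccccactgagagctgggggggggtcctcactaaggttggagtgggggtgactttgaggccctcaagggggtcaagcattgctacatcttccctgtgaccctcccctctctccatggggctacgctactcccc
Prtn3, chr10:79879417-79879666, plus strand: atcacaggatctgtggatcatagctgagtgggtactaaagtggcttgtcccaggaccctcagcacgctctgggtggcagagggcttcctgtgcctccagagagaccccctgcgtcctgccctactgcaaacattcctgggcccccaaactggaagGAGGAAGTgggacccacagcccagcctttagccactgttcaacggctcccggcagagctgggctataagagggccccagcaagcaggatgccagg
Elane, chr10:79886062-79886311, plus strand: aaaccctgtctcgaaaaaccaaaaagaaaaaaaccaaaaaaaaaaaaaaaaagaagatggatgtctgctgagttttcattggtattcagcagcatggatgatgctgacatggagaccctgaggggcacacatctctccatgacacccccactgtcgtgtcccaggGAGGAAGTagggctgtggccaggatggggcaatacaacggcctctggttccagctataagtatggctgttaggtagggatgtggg
The motif began 224, 95 and 85 bases before the start of Mpo, Prtn3 and Elane. It stood in 4 of the 6 primary granule genes, Ctsc being the fourth, and in 9 of the 33 genes of the set that had such a sequence. Of 32851 RefSeq promoters of the same length 2.44% held it. Prtn3 and Elane lie beside each other with no protein-coding gene between, so their regions are not independent examples. Motifs were chosen with the array results known, and a match describes letters only.

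Later granule genes had a median spread within genotypes of 0.715 log2, against 0.423 for the primary granule genes. Whether the upper end of the signal scale narrowed the spread of the primary granule genes was not tested. In each later granule gene knockout array 1 was the highest array. Ngp, neutrophilic granule protein, was at 12.01 in knockout array 1, at 10.04, 8.63, 6.93, 7.06 and 10.08 in knockout arrays 2 to 6, and at 8.70, 10.21, 6.69, 8.23, 6.60 and 9.07 in wild type arrays 1 to 6. Both genotypes thus held arrays near 7 and arrays near 10, and the overlap was complete but for knockout array 1. The difference was 0.88 ± 0.89 log2 (adjusted p 0.668 in limma, two-sided exact permutation p 0.379) and 0.30 ± 0.79 without that array. Lcn2, the iron-siderophore binding protein lipocalin 2, was at 7.40, 8.62 and 11.09 in the knockout and 7.22, 8.01 and 9.40 in the wild type. Its difference of 0.67 ± 0.58 became 0.22 ± 0.46. Ltf, lactoferrin, was at 8.89 in knockout array 1, at 5.66 to 6.80 in the other knockout arrays and at 5.73 to 6.89 in the wild type. Its difference of 0.49 ± 0.47 became 0.03 ± 0.25. Camp, the cathelicidin antimicrobial peptide, was at 8.75 in knockout array 1, up to 7.09 in the others and at 6.37 to 7.30 in the wild type, and its difference of 0.42 ± 0.35 became 0.08 ± 0.18. In Ngp, Lcn2, Ltf and Camp alike the wild type array that stood highest was array 2.

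**Figure D3:**
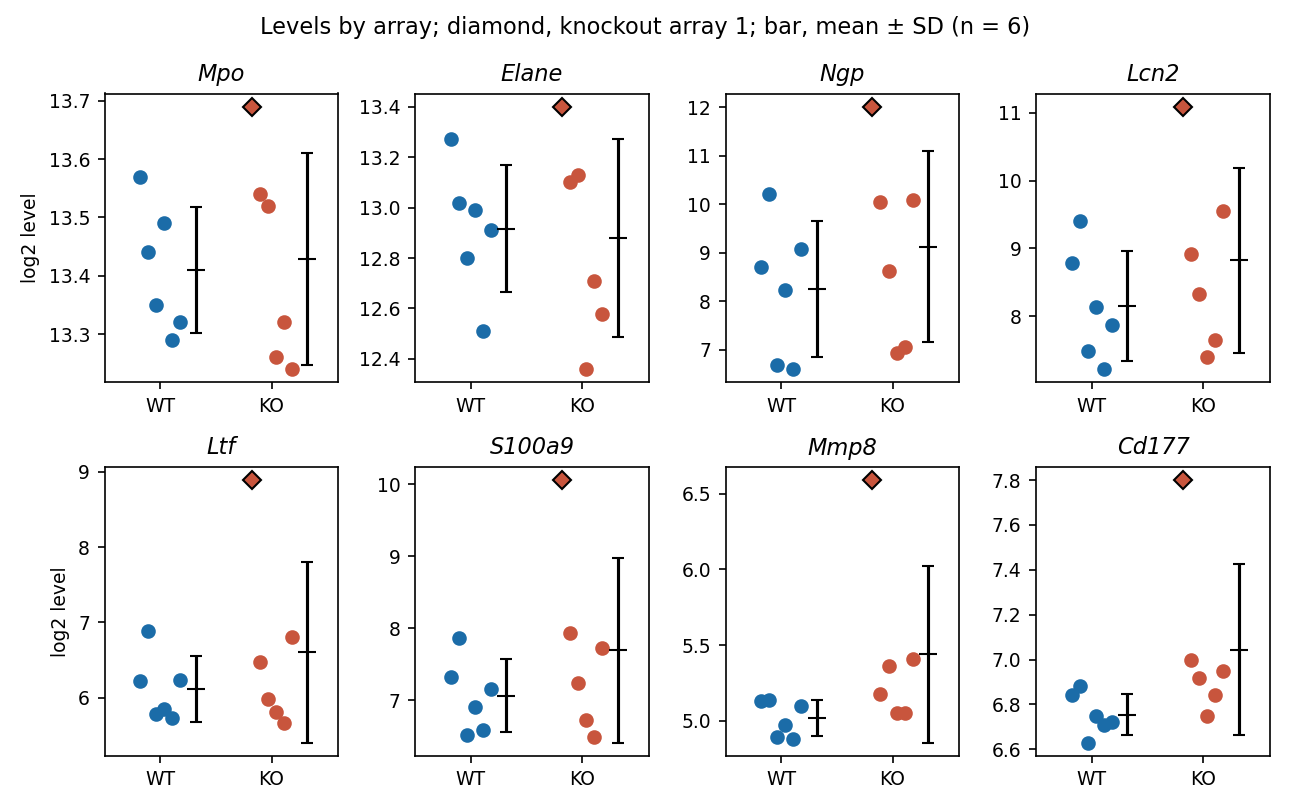
Log2 level on each array for 8 genes, wild type (WT, blue) beside knockout (KO, red), with knockout array 1 as a diamond and the mean ± SD of 6 arrays beside the points; each panel has its own scale, not starting at 0. Knockout array 1 is the highest point in every panel, at 12.01 for Ngp and 8.89 for Ltf, while the other arrays of both genotypes overlap.

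Mmp8 and Cd177 were the later granule genes of lowest p. Mmp8, neutrophil collagenase, was at 6.59 in knockout array 1, at 5.18, 5.36, 5.05, 5.05 and 5.41 in knockout arrays 2 to 6 and at 5.13, 5.14, 4.89, 4.97, 4.88 and 5.10 in the wild type. Most knockout arrays sat slightly above most wild type arrays, but 2 arrays were at or under the 20th percentile of all signals on their array (4.93 to 4.99), so these levels lie near background. The difference was 0.42 ± 0.22 (adjusted p 0.391 in limma, exact permutation p 0.0411 unadjusted) and 0.19 ± 0.083 without knockout array 1 (0.351 and 0.0823). Cd177, a surface glycoprotein stored in specific granules, was at 6.75, 6.93 and 7.80 in the knockout and 6.63, 6.74 and 6.88 in the wild type. Its difference was 0.29 ± 0.15 (adjusted p 0.377 in limma, exact permutation p 0.026 unadjusted) and 0.14 ± 0.058 without the array (0.34 and 0.0519). Neither gene passed over all clusters. Mmp9, gelatinase B, was at 7.59 in knockout array 1 and at 6.58 to 6.87 in the other knockout arrays, against 6.56 to 6.84 in the wild type. Without knockout array 1 its difference of 0.15 ± 0.14 became 0.00 ± 0.065.

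The other later granule genes gave the following values. Pglyrp1, a peptidoglycan recognition protein, was at 8.65, 10.01 and 11.34 in the knockout and 9.03, 9.94 and 10.62 in the wild type, and it differed by 0.06 ± 0.41. Fcnb, ficolin B, differed by 0.13 ± 0.48 and Hp, haptoglobin, by 0.21 ± 0.37. All 3 turned below 0 without knockout array 1, at -0.22, -0.29 and -0.08. In Olfm4, olfactomedin 4, knockout array 1 hardly stood apart: the gene was at 6.17 there and at 6.12 in wild type array 6. Its difference was 0.16 ± 0.12 and 0.12 ± 0.12 without the array.

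The start regions of 4 later granule genes are shown beside those of the primary set. All 7 genes shown hold a marked motif, so they do not stand for their groups. Capitals mark a C/EBP motif, TTNNGCAA on either strand, and in Mmp8 also the PU.1 motif on the opposite strand, ACTTCCTC.
Ngp, chr9:110419558-110419807, plus strand: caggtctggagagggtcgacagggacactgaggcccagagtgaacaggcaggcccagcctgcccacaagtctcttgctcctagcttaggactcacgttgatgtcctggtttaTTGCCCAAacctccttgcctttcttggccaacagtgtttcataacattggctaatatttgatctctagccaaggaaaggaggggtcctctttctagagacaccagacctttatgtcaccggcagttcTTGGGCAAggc
Lcn2, chr2:32387740-32387989, minus strand: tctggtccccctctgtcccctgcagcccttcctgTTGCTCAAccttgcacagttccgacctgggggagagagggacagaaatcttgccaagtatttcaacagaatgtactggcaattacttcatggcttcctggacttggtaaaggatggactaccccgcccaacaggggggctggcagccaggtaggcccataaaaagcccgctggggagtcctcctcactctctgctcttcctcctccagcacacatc
Ltf, chr9:111019042-111019291, plus strand: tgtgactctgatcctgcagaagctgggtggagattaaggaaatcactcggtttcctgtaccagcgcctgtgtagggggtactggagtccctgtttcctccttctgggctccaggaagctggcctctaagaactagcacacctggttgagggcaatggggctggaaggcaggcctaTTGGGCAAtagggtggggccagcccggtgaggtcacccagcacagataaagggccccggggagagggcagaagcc
Mmp8, chr9:7558179-7558428, plus strand: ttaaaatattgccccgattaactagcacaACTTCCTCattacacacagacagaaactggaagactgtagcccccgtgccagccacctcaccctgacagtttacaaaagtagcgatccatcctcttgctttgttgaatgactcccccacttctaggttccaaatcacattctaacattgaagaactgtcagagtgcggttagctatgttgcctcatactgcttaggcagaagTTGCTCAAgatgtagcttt
The C/EBP motif began 138 and 11 bases before the start of Ngp, 216 before that of Lcn2, 75 before that of Ltf and 19 before that of Mmp8. The PU.1 motif of Mmp8 began 221 bases before its start. Of the 11 later granule genes 5 held the C/EBP motif, Fcnb being the fifth, and 0 of the 6 primary granule genes did. Here too, a gene without a sequence would count as lacking the motif. In all, 10 of 33 genes of the set held it, against 9.56% of RefSeq promoters. A further search, for the E4BP4 words TTACGTAA, TTATGTAA, TGACGTAA and TGATGTAA on either strand, found 1 gene of 33, Olfm4 (3.03%), against 2.32% of promoters; no match says only that these letters are absent from this window.

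Primary and later granule genes shared their highest array, knockout array 1, and parted on a few of the others. Knockout array 4 had the lowest mean of the primary granule genes. For the later granule genes its mean of 6.66 hardly differed from the 6.67 of wild type array 5. Of the 11 later granule genes, 2 were lowest in knockout array 4 and 4 in wild type array 5. The mean of the 6 primary granule genes ranged from 11.08 to 12.44 in the knockout (median 11.58) and from 11.26 to 12.09 in the wild type (median 11.56). The mean of the 11 later granule genes ranged from 6.66 to 9.07 (median 7.46) and from 6.67 to 7.70 (median 7.23). Both means overlapped widely between genotypes. Their differences were 0.04 and 0.35 log2 on 12 arrays and -0.13 and 0.04 without knockout array 1. Primary minus later was 3.38, 4.14, 4.51, 4.42, 4.51 and 3.65 in knockout arrays 1 to 6 and 4.62, 3.92, 4.71, 4.45, 4.59 and 4.21 in wild type arrays 1 to 6. Low values, where later granule genes were high relative to primary ones, occurred in knockout arrays 1 and 6 and wild type array 2. Knockout array 1 also had the highest primary granule mean, 12.44. Mpo and Elane lie near the top of the signal scale, and an effect of this on primary minus later was not tested. The genotype means of this quantity were 4.10 ± 0.48 (SD, n = 6) and 4.42 ± 0.30, and 4.25 ± 0.37 in the knockout without array 1. A mean over chosen genes is given without a p.

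**Figure D4:**
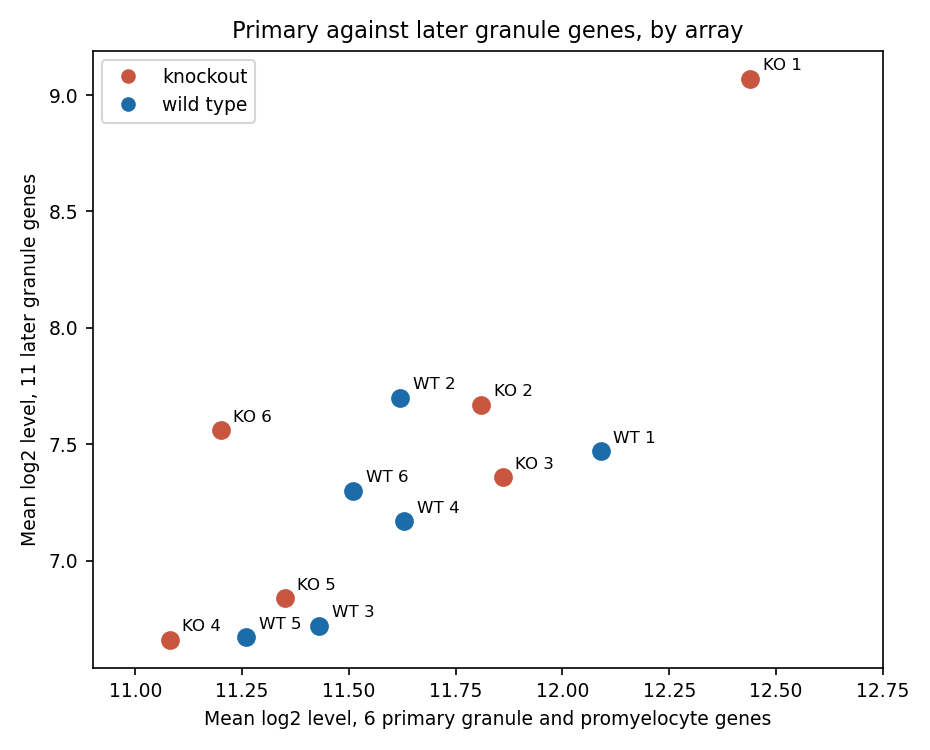
Mean log2 level of 6 primary granule and promyelocyte genes (horizontal) against that of 11 later granule genes (vertical), with 1 point per array, knockout in red and wild type in blue. Knockout array 1 lies at 12.44 and 9.07, away from the rest; knockout array 6 (11.20 and 7.56) and wild type array 1 (12.09 and 7.47) have similar later granule means at different primary granule means.

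Knockout array 6 and wild type array 1 showed the split most plainly; this pair was chosen after the values were seen. All 6 primary granule genes were lower in knockout array 6 than in wild type array 1, by -0.34 log2 for Mpo to -1.51 for Ms4a3. Of the 11 later granule genes 8 were higher there: Ngp by 1.39, Lcn2 by 0.77, Ltf by 0.58, Camp by 0.56, Mmp8 by 0.27, Olfm4 by 0.23, Mmp9 by 0.22 and Cd177 by 0.11. Fcnb, Pglyrp1 and Hp went with the primary granule genes, at -0.89, -0.95 and -1.37. Outside the granule genes, 4 were higher in knockout array 6: Retnlg by 1.03, S100a9 by 0.41, Ly6g by 0.30 and Itgb2l by 0.14. The rest were lower, S100a8 among them at -1.53. These 2 arrays are single mice of different genotype, so the split describes mice, not genotypes.

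Among cytosolic and secreted proteins, S100a8 and S100a9, which together form calprotectin, shared their highest array and their low arrays. The order of the arrays between differed. S100a9 was at 10.06 in knockout array 1, at 7.93, 7.24, 6.72, 6.49 and 7.73 in knockout arrays 2 to 6 and at 7.32, 7.87, 6.51, 6.91, 6.58 and 7.16 in the wild type. S100a8 was at 10.57 in knockout array 1, at 8.35, 8.16, 6.03, 6.47 and 7.38 in the others and at 8.91, 8.47, 6.94, 7.49, 6.26 and 7.56 in the wild type. Knockout array 1 was the highest for both genes, and knockout arrays 4 and 5 and wild type arrays 3 and 5 were low for both. The second highest array was knockout array 2 for S100a9 and wild type array 1 for S100a8. The genes lie beside each other with no protein-coding gene between. S100a9 differed by 0.64 ± 0.51 and by 0.16 ± 0.30 without knockout array 1, and S100a8 by 0.22 ± 0.69 and -0.33 ± 0.53. Retnlg, a resistin-like protein of mature neutrophils, was at 6.02, 7.04 and 8.69 in the knockout and 6.04, 6.48 and 7.39 in the wild type. Its difference of 0.53 ± 0.39 became 0.21 ± 0.29.

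Lyz2, lysozyme, was at 8.89, 9.69 and 11.66 in the knockout and 8.81, 9.71 and 10.65 in the wild type, with nearly equal medians. Its difference was 0.32 ± 0.46, and -0.02 ± 0.37 without knockout array 1; macrophages make it too, and Lyz1 is a close relative, so the signal is not neutrophil-specific. Serpinb1a, an inhibitor of elastase, proteinase 3 and cathepsin G, was at 8.52, 9.04 and 10.20 in the knockout and 8.67, 8.98 and 9.42 in the wild type, and it differed by 0.12 ± 0.24, or -0.09 ± 0.16 without knockout array 1. Lrg1, leucine-rich alpha-2-glycoprotein, was at 7.27 in knockout array 1 and at most 6.26 in the other knockout arrays, against 5.73 to 6.27 in the wild type. Its difference of 0.22 ± 0.21 became 0.01 ± 0.11. Padi4, the enzyme that citrullinates histones when neutrophils release their chromatin, differed by 0.19 ± 0.16 and, without that array, 0.10 ± 0.15. The annexins Anxa1 and Anxa3 differed by 0.06 ± 0.31 and 0.14 ± 0.27, and Mgst1, a microsomal glutathione transferase, by 0.06 ± 0.27. These 3 were below 0 without knockout array 1, at -0.21, -0.07 and -0.15. Of the 10 genes in this group 4 stayed above 0 without it: S100a9, Padi4, Lrg1 and Retnlg.

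The surface receptors gave small differences. Csf3r, the receptor for granulocyte colony-stimulating factor, was at 8.28, 8.68 and 9.46 in the knockout and 8.41, 8.59 and 9.12 in the wild type, and it differed by 0.09 ± 0.19 with a 95% interval from -0.33 to 0.51. Trem3, an activating receptor of myeloid cells, was at 8.84, 9.52 and 11.13 and at 9.17, 9.56 and 10.51, a difference of 0.01 ± 0.37. Both were below 0 without knockout array 1, at -0.06 and -0.28. Cxcr2, the chemokine receptor by which neutrophils leave the marrow, was at 6.64, 6.86 and 7.45 in the knockout and 6.63, 6.77 and 7.18 in the wild type, and it differed by 0.05 ± 0.13, or -0.06 ± 0.10 without that array. Trem1 differed by 0.10 ± 0.34 and Ltb4r1, a leukotriene B4 receptor, by 0.07 ± 0.15. Leaving out knockout array 1 gave -0.18 ± 0.26 and -0.06 ± 0.12.

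Ly6g, part of the GR1 antigen used for depletion, was at 6.55 in knockout array 1. On the other arrays it lay between 4.74 and 5.31, and 6 arrays were at or under the 20th percentile of their signals. This defining marker of mature neutrophils was thus near background on most arrays and clearly above it in knockout array 1. The difference was 0.27 ± 0.25 and 0.01 ± 0.10 without that array. Itgam, which encodes CD11b and is not a gene of the set, was at 8.93 in knockout array 1 and at 6.81 to 8.02 elsewhere. Itgb2l, a beta integrin related to Itgb2, was at 6.34, 6.44 and 6.89 in the knockout and 6.30, 6.36 and 6.43 in the wild type. Its difference was 0.15 ± 0.078 (adjusted p 0.391 in limma, exact permutation p 0.0303 unadjusted) and 0.07 ± 0.041 without knockout array 1 (0.452 and 0.0606).

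Of the NADPH oxidase, which makes superoxide in phagocytes, Cybb encodes the catalytic membrane subunit and Ncf1 a cytosolic organiser. Cybb was at 11.21 in knockout array 1, at 10.02, 9.65, 7.49, 8.46 and 8.88 in knockout arrays 2 to 6 and at 7.78, 9.08 and 9.83 (lowest, median, highest) in the wild type. Its difference was 0.38 ± 0.57, and -0.00 ± 0.49 without that array. Ncf1 was at 8.92, 9.34 and 10.50 in the knockout and 8.93, 9.37 and 9.86 in the wild type, and it differed by 0.14 ± 0.25. Without knockout array 1 it was -0.07 ± 0.18. Monocytes and macrophages use the same oxidase.

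Further neutrophil genes outside the set, from a list written with earlier results known, were also mostly highest in knockout array 1. Of 22 with a row, 0 passed the adjusted threshold in limma and 2 had an unadjusted p under 0.05, against 14.9% of all clusters. These 2 were Wfdc21 (0.21 ± 0.097 log2, adjusted p 0.332) and Mmp25, a membrane-bound metalloproteinase (0.19 ± 0.085, adjusted p 0.334). Without knockout array 1 the count at an unadjusted p under 0.05 in limma was 0, and the differences were 0.19 ± 0.10 and 0.14 ± 0.082. On 12 arrays 19 of the 22 were above 0, and 10 were without knockout array 1; that array was the highest for 20. Of 7 transcription factors of granulopoiesis, 7 were above 0 on 12 arrays, 2 without knockout array 1, and 0 passed in limma with either. Their values included those of Runx1 (0.12 ± 0.068, adjusted p 0.429) and Gfi1, the repressor needed for neutrophil maturation (0.21 ± 0.23, adjusted p 0.699), which without knockout array 1 were at 0.06 ± 0.050 and 0.02 ± 0.17. Cebpe, a driver of the later granule genes that is given for its role and was chosen with its values known, was at 7.64, 8.70 and 9.80 in the knockout and 8.13, 8.65 and 9.16 in the wild type, and it differed by 0.04 ± 0.32, or -0.18 ± 0.27 without that array.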

How the data were processed

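RNA of each mouse was hybridised to an Affymetrix Mouse Gene 1.0 ST array. The deposited values are log2 signals of 34760 transcript clusters that the authors made by RMA in GeneSpring GX version 11, per the series' design text. The annotation's genome build is not stated there. Gene names came from the platform annotation, in which 21640 rows name 1 gene, 1321 several and 11799 none. Of these rows, 29541 were kept because at least 1 array had them at or above its 20th percentile. Genotypes were compared by lmFit and eBayes of limma (version 3.58.1, under R version 4.3.3), Benjamini-Hochberg adjusted over all rows kept, and single genes also by a two-sided exact permutation test over 924 splits of the arrays (462 without knockout array 1). Arrays have no read depth, and their number limits the precision. On simulated data of this design, with independent noise, 68% of clusters changed by 0.5 log2 and 93% of those changed by 1 log2 were recovered, with 8 false calls in all. Those clusters were drawn from all rows, whose spread within genotypes (median 0.113 log2) is below that of the 36 genes (0.512), so the shares do not describe the precision for these genes. Values over the arrays (each array, or the lowest, median and highest) were given for Nfil3, for the 2 genes of highest mean and the 2 of lowest p in each role group and for genes with an array standing apart, and further genes were added with their values known. The members and lists were chosen with earlier results of these data known. Alternatives were other filters, scalings and variance settings, a covariate, a block and arrays left out. Mice were separate per the series' design text.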

Additional observations from a re-analysis of the deposited data

Results flagged for a closer look

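In each genotype the highest or lowest of 6 arrays was compared with its nearest neighbour, relative to the whole range of the 6, for 80 sets of values. An array stood apart by Dixon's 95% criterion in 12 sets, where chance gives about 1 in 20 (about 4). Knockout array 1 was that array in 10 of the 12, each time as the highest: Ctsc at 9.92, Ltf at 8.89, Camp at 8.75, Cd177 at 7.80, Mmp9 at 7.59, Cxcr2 at 7.45, Lrg1 at 7.27, Itgb2l at 6.89, Mmp8 at 6.59 and Ly6g at 6.55 log2. The sets come from the same arrays and are not independent. In the wild type, array 2 stood apart for Camp at 7.30, and array 1 for Nfil3 at 7.66.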

How the results depend on the processing

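No gene of the set passed the adjusted threshold in limma under any of the 22 alternatives. At an unadjusted p under 0.05 in limma the count of the 36 was 0 as reported, against 14.9% of all clusters. It was 2 with the Y-linked signal as a covariate and 2 without both arrays numbered 1 (Mmp8 and Cd177 each time). The shares of all clusters were then 13.8% and 12.1%. The mean Y-linked signal was 7.351 in knockout array 1 and 4.293 to 4.483 elsewhere. As a covariate it therefore nearly repeats leaving that array out and is no separate adjustment for sex. The count ran from 0 to 2 when each array was left out in turn. It was 2 without knockout array 1 (Mmp8, Cd177), against 13.6% of all clusters. Without knockout array 4 it was 2 (Cd177, Itgb2l), against 14.3%. With the replicate number as a block the count was 1 (Cd177, 0.29 log2, adjusted p 0.279 in limma), against 17.4% of all clusters. Same-numbered arrays deviated together with r from -0.033 to 0.462, the highest being that of the arrays numbered 1. Knockout arrays 1, 5 and 6 correlated best with their own number. After knockout array 1, wild type array 1 was the second highest array for 20 of the 36 genes. The main comparison did not pair the mice by number. The mean difference of the primary granule genes ran from -0.13 to 0.14, that of the later granule genes from 0.04 to 0.52, and primary minus later from -0.42 to -0.17 with 1 array left out. Without both arrays numbered 1, primary minus later was -0.13. Of 484 values for 22 named genes, 437 kept their direction and 47, in 12 genes, turned; the cause was not tested. Centring each array on its median gave -0.02 for Mpo and -0.03 for Trem3. With limma's array weights Cxcr2 was at -0.01, Mpo -0.01, Pglyrp1 -0.03 and Trem3 -0.10. With the Y-linked covariate Csf3r was at -0.05, Ctsc -0.04, Cxcr2 -0.05, Lyz2 -0.00, Mpo -0.03, Ncf1 -0.06, Pglyrp1 -0.21, Serpinb1a -0.08 and Trem3 -0.26. Without both arrays numbered 1, Cxcr2 was at -0.01, Mmp9 -0.01, Mpo -0.00, Pglyrp1 -0.07, Serpinb1a -0.01 and Trem3 -0.11. With 1 array left out, Csf3r ran from -0.06 to 0.19, Ctsc from -0.06 to 0.29, Cxcr2 from -0.06 to 0.12, Cybb from -0.00 to 0.74, Elane from -0.14 to 0.07 and Lyz2 from -0.02 to 0.53. Mpo ran from -0.04 to 0.06, Ncf1 from -0.07 to 0.25, Pglyrp1 from -0.22 to 0.32, Serpinb1a from -0.09 to 0.25 and Trem3 from -0.28 to 0.18. Mmp8 and Ly6g lie near background, which limits what their values can show.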
